A study of Mus musculus with 5 samples.

Results

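Chac1, Asns, Atf5, Slc7a3, Slc7a5 and Nupr1 are 6 genes of the response of cells to a shortage of amino acids, and they are described here across the developing mouse cerebellum, as 6 of 15971 genes measured. They were chosen because their values were high together in cells with Eomes and Lmx1a, the transcription factor genes that mark unipolar brush cells, of 1 library, so their levels and their co-variation in that library are a description and carry no test. The study measured single-cell transcriptomes of dissociated cerebellum in 5 libraries. The EomesCreER e16 library came from embryonic day 16 of a line that carries a CreER recombinase named for Eomes. The labels do not say by what sort or reporter those cells were taken. The RL e14 libraries (2) and the RL e13 libraries (2) carry RL and UT in their titles and came from embryonic days 14 and 13, with no transgene named. The title of the e16 library lacks UT, and the titles do not say what UT stands for. RL e13 replicate 2 carries day 13 in its title and day 14 in its age tag, and the title was followed. CreER is a recombinase that acts after tamoxifen, and a line driven by Eomes marks cells that have switched Eomes on.

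When an amino acid runs short, uncharged transfer RNA activates the kinase GCN2, which phosphorylates the initiation factor eIF2. General translation then falls while the transcription factor ATF4 is made, and ATF4 switches on genes that make, import and load amino acids. Kinases that sense unfolded protein, haem or double-stranded RNA feed into the same step, which is why the whole is called the integrated stress response. ATF4 acts with C/EBP partners on a composite DNA element that was first described in amino acid response genes. Unipolar brush cells are excitatory interneurons of the cerebellum that arise from the rhombic lip and express Eomes.

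The promoters of the members were read to show that element, and the windows that hold it are printed. RefSeq windows (GRCm38.p6) were found for 4 of the 6 genes, and the 250 bases before the annotated start were searched for TGATGNAA on both strands. Capitals mark the match, 5′ to 3′ on the strand of the gene.
Chac1, chr2:119350992-119351241, plus strand: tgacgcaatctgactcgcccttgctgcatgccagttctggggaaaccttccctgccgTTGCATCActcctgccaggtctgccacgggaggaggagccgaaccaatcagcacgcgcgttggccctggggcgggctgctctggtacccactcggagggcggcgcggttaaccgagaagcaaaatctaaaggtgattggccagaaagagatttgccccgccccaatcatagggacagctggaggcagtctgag
Asns, chr6:7693210-7693459, minus strand: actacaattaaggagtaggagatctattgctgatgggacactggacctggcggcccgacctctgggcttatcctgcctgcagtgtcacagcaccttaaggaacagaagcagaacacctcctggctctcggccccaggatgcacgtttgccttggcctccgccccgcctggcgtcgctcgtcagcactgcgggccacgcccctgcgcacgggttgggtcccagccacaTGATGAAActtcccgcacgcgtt
Nupr1, chr7:126625471-126625720, minus strand: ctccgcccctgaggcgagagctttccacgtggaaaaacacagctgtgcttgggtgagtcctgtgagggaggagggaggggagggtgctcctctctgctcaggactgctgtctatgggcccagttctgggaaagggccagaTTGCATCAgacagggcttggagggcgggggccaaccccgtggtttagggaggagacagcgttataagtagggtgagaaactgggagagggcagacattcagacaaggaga
The match in Chac1 lay 193 to 186 bases before the start and read on the opposite strand. The match in Asns lay 23 to 16 bases before the start on the strand of the gene, and that in Nupr1 lay 110 to 103 bases before the start on the opposite strand. These starts are those of RefSeq and differ from the GENCODE positions given below. By the GENCODE positions the whole Nupr1 window and the Asns match lie within the genes, and the Chac1 match lies before its gene. Neither of the windows of Atf5 held the letters. A match was thus present in 3 of 4 members with a window, against 269 of 11415 genes of the table with a window (2.36%). A match is a string of letters and was not tested as a binding site.

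The e16 library held 2676 cells with a median of 10346 UMIs (unique molecular identifiers, which count molecules), and the RL libraries held 706 to 1818 cells with medians of 15855 to 19970 UMIs. Cells with at least 1 UMI of Eomes and of Lmx1a numbered 1659 in the e16 library (62.0%), against 38 and 47 in the RL e14 libraries and 1 and 69 in the RL e13 libraries. RL e13 replicate 1 therefore gave no profile of Eomes+ Lmx1a+ cells, since 20 cells were required. A total of 12 cells had a barcode that occurred in another library. Markers of the brush cell lineage that the gate did not use were present: Otx2 stood at 547 CPM (UMIs per 1000000 UMIs of a cell, averaged over cells) in the Eomes+ Lmx1a+ cells of the e16 library, against 340 to 618 CPM in those of the RL libraries, and Calb2, a marker of one kind of mature brush cell, at 131 CPM against 0 to 74.1 CPM. All 7 measured brush lineage markers, Eomes and Lmx1a among them, were detected in the e16 gate, and their summed level was 1933 CPM, against 858 to 1527 CPM in the RL gates. Markers of differentiating granule neurons summed to 4988 CPM in the e16 gate, against 2663 to 4440 CPM in the RL gates. Markers of microglia, vessels and meninges summed to at most 5.93 CPM each in the e16 gate, against at most 4.58 CPM each in the RL gates. Mki67 or Top2a, genes of dividing cells, had a UMI in 6.63% of the e16 gate cells, against 40.4% to 55.1% of the RL gate cells.

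All 6 genes stood higher in the e16 library than in every RL library, and this was so in the Eomes+ Lmx1a+ cells and in the other cells alike. Neither the gate cells nor the other cells were of like make-up, however. Radial glia markers summed to 329 CPM in the e16 gate, against 1260 to 1898 CPM in the RL gates. Markers of granule cell progenitors summed to 1219 CPM in the e16 gate, against 1814 to 2603 CPM in the RL gates. Cells with neither Eomes nor Lmx1a were 5.08% of the e16 library, against 67.3% to 73.7% of the RL libraries. The e16 library is alone in its group, so day, line, cell selection and library cannot be told apart, and no test was made. Against the RL libraries, 8233 genes reached a mean level of at least 10 CPM in the gate, and 5.08% of them were higher by at least 1 on the log2(CPM + 5) scale and outside the RL range, while 6.3% were lower. Chac1, Asns, Atf5 and Slc7a5 reached that mean and were past both limits. In the other cells Asns and Atf5 reached it and were past them, where 8.69% of 8538 genes were. Over all cells Asns, Atf5 and Slc7a5 did so, where 9.87% of 8557 genes did. Low members pass such a filter through the e16 library, where they are high, so these counts support nothing. The log2 differences in the gate were 2.38 for Chac1, 2.14 for Asns, 1.74 for Atf5, 3.02 for Slc7a3, 2.07 for Slc7a5 and 1.45 for Nupr1, against 0.08 at the median of all genes.

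Asns (chr6:7675169-7693254, minus strand, GENCODE genes on mm10, as for those that follow) makes asparagine from aspartate and glutamine. It averaged 217 CPM in the e16 gate cells, against 39.5 and 47.8 CPM in those of RL e14 replicates 1 and 2 and 49.8 CPM in those of RL e13 replicate 2. The ratio to the RL mean of 45.7 ± 5.48 CPM (SD, n = 3) was 4.75. In the other cells Asns averaged 152 CPM in the e16 library, against 46.2 to 56.6 CPM in the 4 RL libraries, a ratio of 3.07 to their mean. The e16 values lay outside the RL range in both gates.

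Chac1 (chr2:119351229-119354381, plus strand) encodes an enzyme that breaks down glutathione. It averaged 35.2 CPM in the e16 gate cells, against 1.28, 5.35 and 2.06 CPM in the same 3 RL libraries, which held 9 UMIs of it in all. The mean of these was 2.90 ± 2.16 CPM (SD, n = 3) and the ratio 12.1. Outside the gate Chac1 averaged 20.8 CPM in the e16 library, against 1.04 to 2.27 CPM in the RL libraries, a ratio of 14.9 to their mean. Of the 9 RL gate UMIs, 5 came from RL e14 replicate 2, where 2 cells held them.

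Atf5 (chr7:44812256-44816658, minus strand) encodes a transcription factor of the ATF family whose translation rises under eIF2 phosphorylation. It averaged 98.9 CPM in the e16 gate cells, against 28.0, 30.5 and 20.9 CPM in the RL libraries, a ratio of 3.74 to their mean of 26.5 ± 4.96 CPM (SD, n = 3). Cells outside the gate averaged 88.2 CPM in the e16 library, against 24.2 to 28.4 CPM in the RL libraries. Atf5 thus had nearly the same ratio, 3.34, outside the gate.

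The transporters were next. Slc7a5 (chr8:121881150-121907694, minus strand) encodes the light chain of the exchanger for large neutral amino acids, and averaged 43.7 CPM in the e16 gate cells, against 9.78, 6.09 and 4.54 CPM in the RL libraries. The ratio to the RL mean of 6.80 ± 2.69 CPM (SD, n = 3) was 6.43. In the other cells Slc7a5 averaged 28.6 CPM in the e16 library, against 3.53 to 4.43 CPM in the RL libraries, a ratio of 7.52 to their mean. Slc7a3 (chrX:101079210-101086020, minus strand), which carries cationic amino acids such as arginine, averaged 38.4 CPM in the e16 gate cells (624 UMIs), against 0, 1.11 and 0 CPM (1 UMI) in the RL gates. The ratio of the CPM of summed UMIs was 101, with an exact 95% counting interval of 18.05 to 3992. Outside the gate Slc7a3 averaged 15.96 CPM in the e16 library, against 0.742 to 5.25 CPM in the RL libraries, where RL e13 replicate 1 gave the highest value. The ratio of the CPM of summed UMIs was 8.17 outside the gate (exact 95% counting interval 6.44 to 10.4).

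Nupr1 (chr7:126623249-126630861, minus strand) encodes a small nuclear protein induced by stress. It averaged 9.55 CPM in the e16 gate cells (159 UMIs), against 0.997, 0 and 0 CPM (1 UMI) in the RL gates, with a ratio of the CPM of summed UMIs of 25.7 (exact 95% counting interval 4.55 to 1022). In the other cells it averaged 9.70 CPM in the e16 library, against 0 to 0.0970 CPM in the RL libraries, with 5 UMIs over the 4 libraries. Intervals of this kind cover counting error only.

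**Figure D1:**
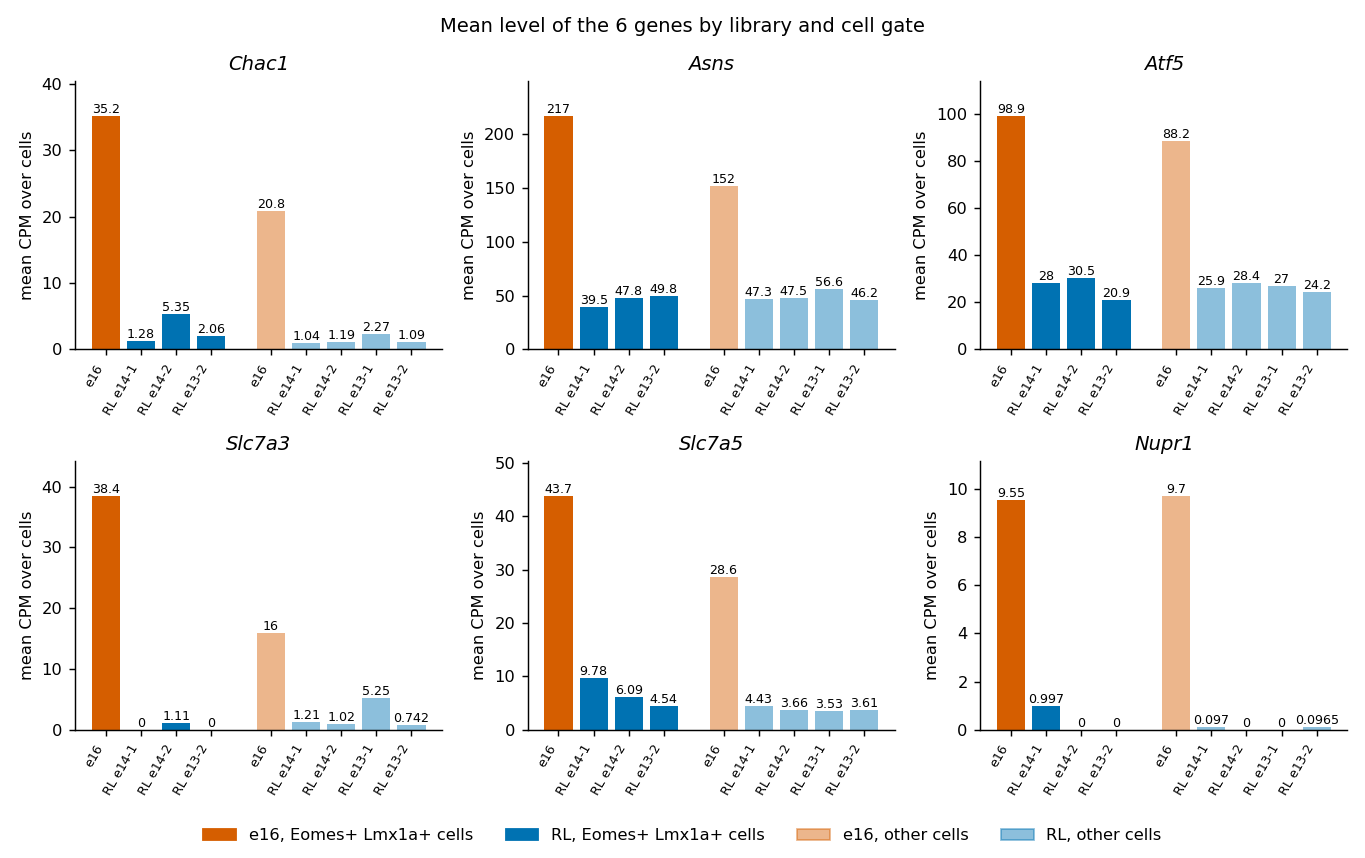
Mean level in CPM (vertical axis, one scale per gene) of the 6 genes in Eomes+ Lmx1a+ cells (full colour) and in other cells (pale) of the e16 library (orange) and of the RL libraries with 20 or more such cells (blue). The e16 bar is the highest of its gate for every gene, from 9.55 CPM for Nupr1 to 217 CPM for Asns in the Eomes+ Lmx1a+ cells.

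Within the e16 library the genes did not stop at the edge of the gate. Of its 1017 other cells, 829 held Eomes without Lmx1a, 52 held Lmx1a without Eomes and 136 held neither. Cells with Eomes and exactly 1 UMI of Lmx1a (463) averaged 218 CPM of Asns and 38.1 CPM of Slc7a3, and cells with Eomes and no UMI of Lmx1a (829) averaged 163 CPM and 17.7 CPM. For Atf5 the values on the 2 sides of the edge were 98.1 and 97.4 CPM, and for Nupr1 they were 9.01 and 11.3 CPM. The cells with neither Eomes nor Lmx1a averaged 81.4 CPM of Asns, 42.7 CPM of Atf5, 9.30 CPM of Slc7a5, 4.11 CPM of Chac1, 2.56 CPM of Slc7a3 and 2.08 CPM of Nupr1, the last 3 from 3 to 6 UMIs each. These cells were lower than both Eomes+ groups for all 6 genes, and their Asns and Atf5 still lay above the RL ranges of both gates. Slc7a5, Chac1 and Nupr1 lay above the range of the RL other cells, whose highest values were 4.43, 2.27 and 0.0970 CPM. Slc7a3 lay within that range, and Slc7a5 and Chac1 did not exceed the RL gates. They had a median of 14836 UMIs, against 10001 UMIs in the gate. The genes were thus high across the Eomes+ cells of the library, with or without a UMI of Lmx1a. A cell with 0 UMIs of Lmx1a may still express it.

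Among the e16 gate cells, those with Mki67 (84) had low values, with 53.1 CPM of Asns, 28.5 CPM of Atf5, 3.79 CPM of Chac1 and 4.72 CPM of Slc7a3, against 226, 103, 36.9 and 40.2 CPM in gate cells without it (1575). Gate cells with Calb2 (366) had 274 CPM of Asns and 145 CPM of Atf5, against 201 and 85.9 CPM in those without Calb2 (1293), and Slc7a3 stood at 51.6 against 34.7 CPM. Dividing cells were a larger share of the RL gates, so the RL gates were also read without the cells that held Mki67, for Asns and Atf5. Cells with Top2a but no UMI of Mki67 stayed in. Gate cells without Mki67 in the RL libraries averaged 35.3, 52.7 and 54.3 CPM of Asns and 23.3, 21.4 and 16.5 CPM of Atf5, in the same order of libraries as above. These values lay below the e16 gate cells without Mki67 for both genes.

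The libraries also differed in how many cells held the genes, and in how many UMIs a cell held. With every cell thinned to 5000 UMIs, which equalises depth, Asns had a UMI in 43.7% of 1645 e16 gate cells, against 18.4% to 25.5% of the RL gate cells. Without thinning these shares were 59.0%, against 44.7% to 59.6%. At least 3 Asns UMIs of 5000 were present in 269 e16 gate cells (16.4%), against 0 of 38, 0 of 47 and 0 of 69 RL gate cells, and in 2 to 7 other cells of each RL library, at most 1% of them. One e16 gate cell reached 15 Atf5 UMIs of 5000, where no RL cell had more than 3.

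Cells that held one gene tended to hold the others. At 5000 UMIs per cell, 294 e16 gate cells (17.9%) had a UMI of at least 3 of the 6 genes, where the product of the single shares would give 7.73%. At least 4 genes were present in 7.66% of cells, against 0.985% from the product, and all 6 in 6 cells. The other e16 cells had at least 3 genes in 97 cells (9.65%), against 3.23% from the product. In the RL libraries 0 to 2 cells per library and gate had 3 or more, close to the products of 0.0693% to 0.162%. Cells of 1 library share its preparation and are not replicates, so these shares are a description.

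**Figure D2:**
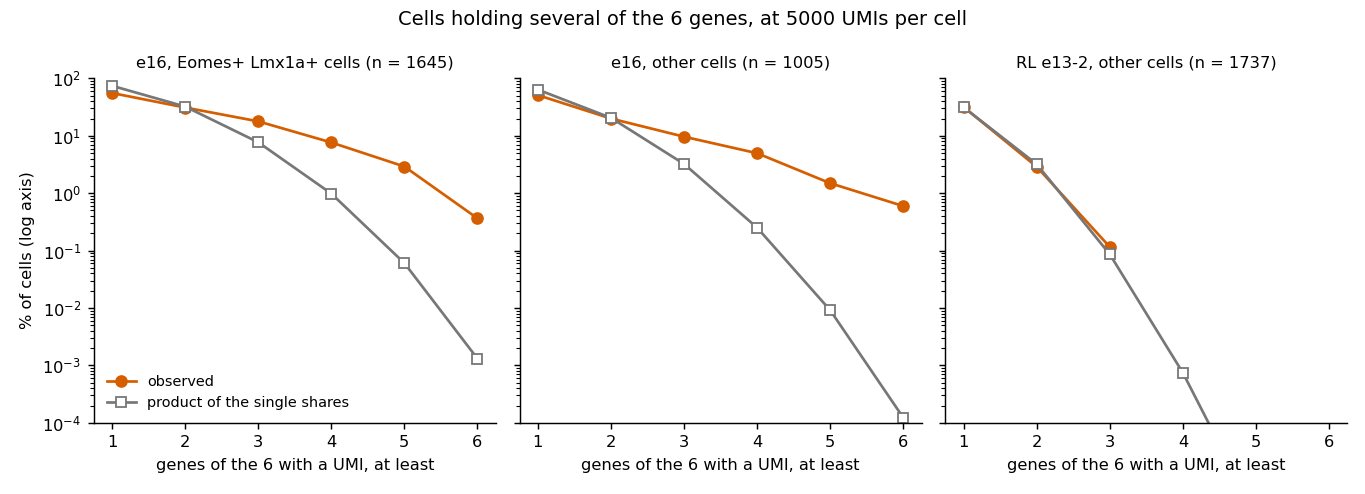
Percent of cells (vertical log axis) with a UMI of at least 1 to 6 of the 6 genes, at 5000 UMIs per cell, as observed (filled circles) and as the product of the single shares (open squares), in Eomes+ Lmx1a+ cells and other cells of the e16 library and in other cells of RL e13 replicate 2. The curves part from 3 genes upward in the e16 library, with 17.9% against 7.73% in the Eomes+ Lmx1a+ cells, and lie together in the RL library.

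Each gene was higher in the e16 cells that held more UMIs of the other 5. Chac1 averaged 105 CPM in e16 gate cells with 5 or more UMIs of the other 5 genes, against 5.61 CPM in cells with none. For Slc7a3 the values were 136 and 3.78 CPM, and for Slc7a5 they were 142 and 13.4 CPM. Asns reached 703 CPM, against 76.5 CPM, and Atf5 356 CPM, against 23.8 CPM. Nupr1 had 65 of its 88 UMIs in the cells with 5 or more UMIs of the other genes. Depth before thinning did not differ much between these cells: grouped by the UMIs of all 6 genes, cells with 0, 1, 2 to 4 and 5 or more had medians of 10107, 10022, 9948 and 9933 UMIs. The share with Mki67 or Top2a was 8.92% in cells with 0 and 1.97% in cells with 5 or more. In the other e16 cells depth did move, with a median of 12328 UMIs in cells with 0 and 9845 UMIs in cells with 5 or more. Markers moved there too: from 0 to 5 or more UMIs of the 6 genes, brush lineage markers summed to 928, 978, 1057 and 1475 CPM and radial glia markers to 1066, 729, 1052 and 313 CPM. The share with Mki67 or Top2a was 15.9% in cells with 0 and 4.81% in cells with 5 or more. Their part in the values of the 6 genes was not tested.

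**Figure D3:**
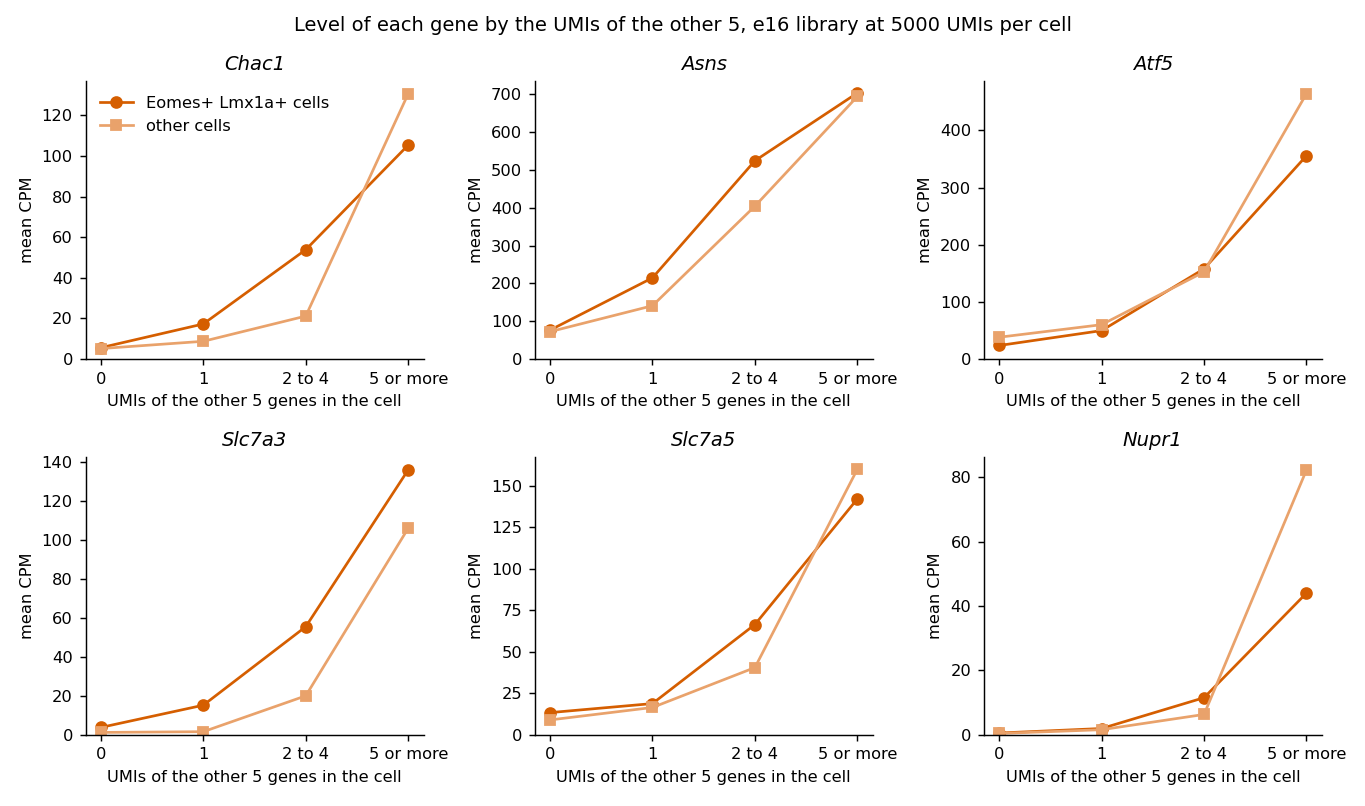
Mean CPM of each of the 6 genes (vertical axis) in e16 cells grouped by the UMIs of the other 5 genes (horizontal axis), at 5000 UMIs per cell, for Eomes+ Lmx1a+ cells (dark circles) and other cells (pale squares). All 6 genes climb in both kinds of cell, Asns to 703 and 694 CPM.

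Over the 1645 e16 gate cells the 15 pairs of genes had Pearson correlations of 0.201 to 0.456 on the natural log scale, with a median of 0.263. Asns and Atf5 had the highest value, 0.456, followed by Asns with Slc7a3 (0.419) and Asns with Slc7a5 (0.394). The pairs with Nupr1, of which 88 UMIs were left after thinning, lay between 0.201 and 0.263. For scale, 22791376 pairs of genes with a UMI in a like share of the same cells (4.26% to 43.7%) had a median of -7.46e-05, a 99th percentile of 0.0633 and 0.00252% at or above 0.2. In the other e16 cells (1005) the 15 pairs ran from 0.229 to 0.390 with a median of 0.319. The Eomes+ cells without Lmx1a (821) had a median of 0.329, and the cells with neither gene (134) had a median of 0.00397 over the 10 pairs that could be computed. Those 10 pairs ran from -0.0854 to 0.306, and most rest on few UMIs, so their median says little. Asns with Atf5, the genes with the most UMIs, had 0.190 in the cells with neither gene, against 0.388 in the Eomes+ cells without Lmx1a. At least 3 of the 6 genes were present in 92 of those 821 cells (11.2%) and in 1 of the 134 (0.746%).

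In the RL libraries the medians over pairs lay between -0.0346 and -0.00602. Most pairs there rest on few UMIs after thinning, when only Asns with Atf5 can be read: in other cells it had correlations of 0.0711, -0.0116, 0.00589 and -0.0154 in RL e14 replicates 1 and 2 and RL e13 replicates 1 and 2. These rest on 184 to 385 UMIs of Asns and 75 to 208 of Atf5, against 1799 and 817 UMIs in the e16 gate, so the pair was sparser in RL cells. Without thinning, the 705 other cells of RL e13 replicate 1 had a median of 0.0401 over 10 pairs, and Chac1 with Asns reached 0.239 from 33 and 782 UMIs. The unthinned median was 0.351 in the e16 gate, and from -0.0230 to -0.00378 in the RL groups of cells besides. No p is given for correlations over cells, which share library, depth and total.

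**Figure D4:**
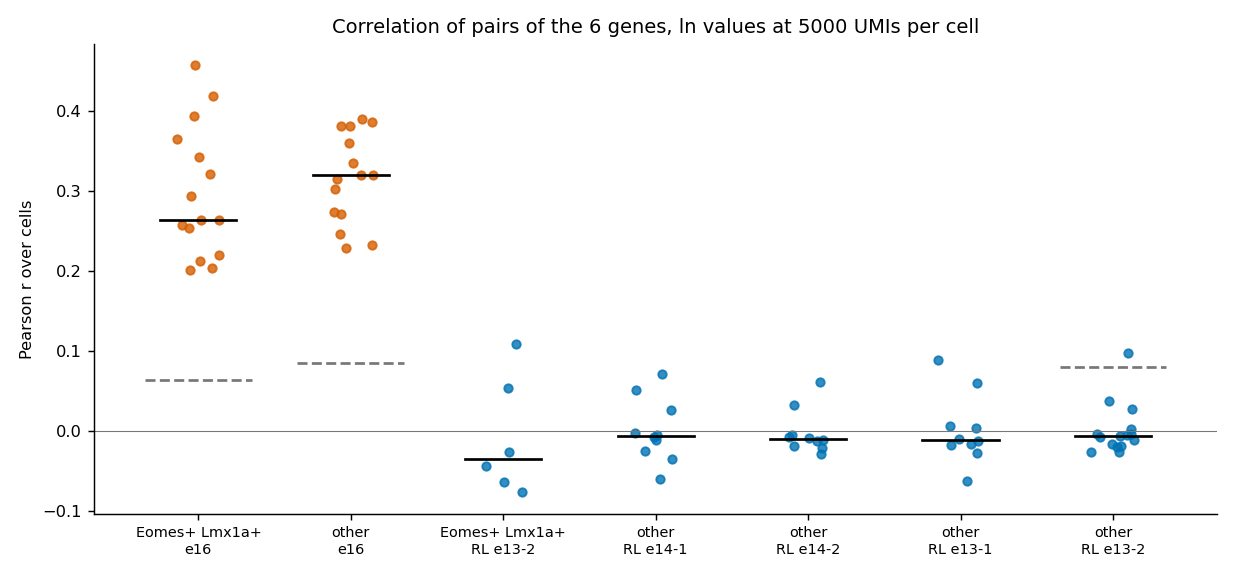
Pearson correlation over cells (vertical axis) of the pairs of the 6 genes at 5000 UMIs per cell, by library and gate, 1 point a pair. Black lines are medians, and dashed lines the 99th percentile of pairs of like-detected genes where computed. The e16 points lie at 0.201 or above in both gates, and the RL medians lie just below 0.

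The genes most like the 6 were found by correlation with their mean over the same 1645 cells, among 7969 genes with a UMI in 5% or more of cells. The first 10 were Eif1 (0.510), Slc3a2 (0.485), Phgdh (0.439), Eif4ebp1 (0.438), Eif2s2 (0.433), Mthfd2 (0.430), Gars (0.426), Nars (0.390), Rpl10 (0.379) and Hspa5 (0.371). Slc3a2 encodes the heavy chain that pairs with the Slc7a5 protein at the membrane. Phgdh opens serine synthesis and Mthfd2 serves mitochondrial one-carbon metabolism. Gars and Nars load glycine and asparagine onto their transfer RNAs. Eif4ebp1 encodes a brake on cap-dependent translation, Eif1 and Eif2s2 encode initiation factors, Rpl10 a ribosomal protein and Hspa5 the chaperone BiP of the endoplasmic reticulum. Atf4 itself followed with 0.364. Over all 7969 genes the median was -0.000114 and 50 genes (0.627%) reached 0.2. In the other e16 cells the 10 genes ran from 0.236 to 0.490, and in other cells of the RL libraries from -0.0502 to 0.113. Actb (-0.233), Tmsb10 (-0.226) and H3f3a (-0.219), which are abundant in every cell, were at the low end. Of the 10 genes, 8 had a promoter window and 1 of them, Gars, held the element.

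Gene lists show which branches of the response went along. Of 11 amino acid synthesis and one-carbon genes detected in 5% of cells, 8 reached a correlation of 0.2, and the list's median was 0.239. Phgdh, Mthfd2, Shmt2 (0.321) and Psat1 (0.266), of serine and glycine metabolism, led it. Of 20 cytosolic tRNA synthetases 9 reached 0.2 (median 0.179), with Lars (0.355), Sars (0.351) and Cars (0.331) after Gars and Nars. Of 15 genes of the unfolded protein response in the endoplasmic reticulum 7 reached it (median 0.183), with the chaperone genes Pdia6 (0.347), Calr (0.337) and Hsp90b1 (0.327) behind Hspa5. Among 15 regulators of the integrated stress response the count was 5 (median 0.139), and Sesn2, an inhibitor of mTORC1 signalling, had 0.353 and Ddit3, the transcription factor CHOP, 0.220. Among 7 amino acid transporters Slc3a2, Slc7a1 (0.346) and Slc1a4 (0.268) reached 0.2, and the median of 0.0606 was lower.

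The other lists did not go along. Mitochondrial chaperones and proteases, glutathione and oxidative stress, mTORC1 and amino acid sensing, dissociation (immediate early and heat shock) genes, p53 and apoptosis, S phase and G2 and M phase had 0 genes at 0.2, with medians between -0.0592 and 0.0122. Hypoxia and glycolysis had 1 of 8, Vegfa (0.241). Among e16 gate cells grouped by UMIs of the 6 genes, the brush lineage markers, with Eomes and Lmx1a, summed to 1914 CPM in cells with 5 or more UMIs and 1944 CPM in cells with 0. The list of dissociation genes, immediate early and heat shock, summed to 5426 CPM and 5985 CPM in the same cells. Its 7 immediate early genes, which also read the handling of cells, had correlations from -0.0540 (Ier2) to 0.0158 (Jund). The 9 genes of the whole list detected in 5% of cells ran from -0.152 (Hsp90aa1, a heat shock gene) to 0.0158.

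**Figure D5:**
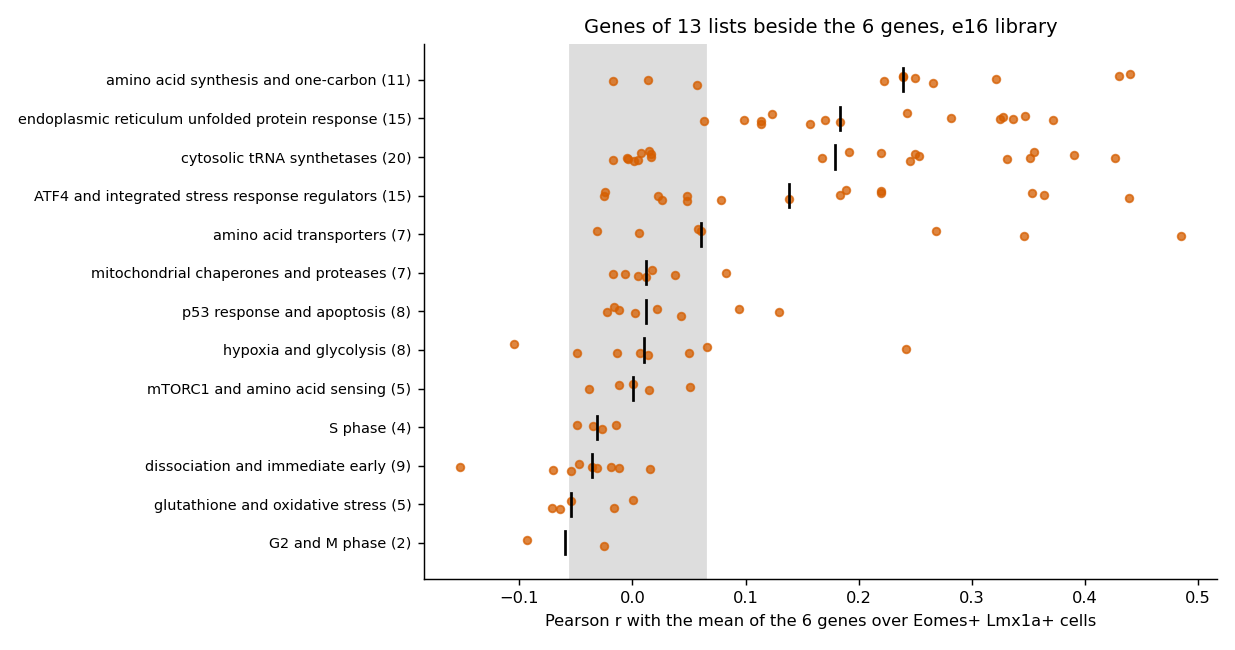
Pearson correlation (horizontal axis) of single genes of 13 lists with the mean of the 6 genes over 1645 e16 Eomes+ Lmx1a+ cells, 1 point a gene, with the number of genes detected in 5% of cells in brackets. Black lines are list medians, and the grey band spans the 5th to 95th percentile of all 7969 genes, -0.0552 to 0.0652. The lists of amino acid synthesis, unfolded protein response, tRNA synthetases and stress regulators have medians to the right of the band.

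The same lists were read between libraries, again with no test. In the gate 5.08% of all genes tested were past a log2 difference of 1 and above the RL range. Another 6.3% were below that range by as much. In the other cells these shares were 8.69% and 10.8%. Of 11 synthesis genes that reached the mean of 10 CPM in the gate, 3 were past a log2 difference of 1 and above the RL range, among them Aldh1l2 (a difference of 1.89) and Got1 (1.10), and the list's median difference was 0.73, against 0.08 over all genes tested. Of 7 transporters 3 were past it, namely Slc1a4 (1.40), Slc3a2 (1.29) and Slc7a1 (1.07). Of 20 tRNA synthetases Cars (1.12) and Gars (1.10) were past it, and of 13 regulators Vldlr (2.46), which encodes a lipoprotein and reelin receptor. None of 15 genes of the unfolded protein response was. In the other cells none of the 10 synthesis genes was past it and 3 were below the RL range by that much, with a median of -0.09, against -0.04 over all genes. Of 14 regulators there, 3 were past it and 2 were below by that much. Phgdh, which moved with the 6 genes over cells, averaged 34.99 CPM in the e16 gate, against 23.9 to 34.7 CPM in the RL gates. All 7 S phase genes and 6 of 7 G2 and M phase genes were past the limit downward in the e16 gate, as were 7 and 6 in the other cells. Their part in the values of the 6 genes was read only through the cells without Mki67 above, which in the RL gates covers Asns and Atf5.

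Within the RL libraries a test was possible, since 3 libraries held both gates, but of the 6 genes only Asns and Atf5 reached the level for it. This asks whether Eomes+ Lmx1a+ cells carry more of them than the other cells of the same library. Limma tested 8387 genes and called 23.3% of them at an adjusted p under 0.05, 10.9% as higher in the Eomes+ Lmx1a+ cells and 12.4% as lower. Neither of the 2 members tested was called. Asns averaged 45.7 ± 5.48 CPM in the gate cells and 47.0 ± 0.711 CPM in the other cells (SD, n = 3), a log2 difference of -0.04 ± 0.14 (SE, 95% interval -0.36 to 0.27, limma adjusted p = 0.87). Atf5 averaged 26.5 ± 4.96 and 26.2 ± 2.08 CPM, a difference of 0.00 ± 0.17 (SE, 95% interval -0.38 to 0.38, limma adjusted p = 0.99). Chac1, Slc7a3, Slc7a5 and Nupr1 lay under the mean of 10 CPM. The RL gates held 9, 1, 18 and 1 UMIs of them, too few to say whether they differ. Fitted without that filter, their differences were 0.34, -0.16, 0.38 and 0.07, with limma adjusted p of 0.23, 0.25, 0.27 and 0.53. Chac1 and Slc7a5 were higher in the gate in 3 of 3 libraries. For Chac1 this direction is not firm, since RL e14 replicate 1 counted as higher on 1 UMI (1.28 against 1.04 CPM). Thinned to 5000 UMIs per cell, both RL e14 gates held 0 UMIs of Chac1.

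Other genes of the response did differ between the gates of the RL libraries. Atf4 averaged 245 ± 33.5 CPM in the gate cells and 173 ± 16.2 CPM in the other cells (SD, n = 3), a log2 difference of 0.49 ± 0.09 (SE, limma adjusted p = 0.0026), and was higher in 3 of 3 libraries. In the thinned fit Eomes and Lmx1a were read again from the thinned UMIs, which left 2 libraries with 22 and 24 gate cells. The difference of Atf4 was then 0.61 (limma adjusted p = 0.11). Xbp1, a transcription factor of the unfolded protein response, averaged 120 ± 9.56 and 72.01 ± 9.41 CPM, a difference of 0.71 ± 0.11 (SE, limma adjusted p = 0.00097). Serine synthesis went the other way: Psat1 averaged 50.1 ± 12.5 and 156 ± 28.2 CPM and Phgdh 29.4 ± 5.42 and 97.4 ± 25.8 CPM, with differences of -1.56 ± 0.11 and -1.55 ± 0.15 (SE, limma adjusted p = 5.2e-06 and 3.7e-05), lower in 3 of 3 libraries.

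By list, 2 of 13 stress regulators were higher (Atf4 and Cebpg) and 3 were lower (Eif4ebp1, Eif2ak2 and Ddit4), with a median difference of -0.08, against -0.05 over all genes. Over all genes tested, 10.9% were higher and 12.4% were lower. Cebpg, a partner of ATF4, had a difference of 0.41 (limma adjusted p = 0.016), and Eif4ebp1 one of -0.97 (limma adjusted p = 0.0078). Of 9 synthesis genes 5 were lower and 0 higher, with a median of -0.54. Psph (-0.92) and Glul (-0.64) were among them, and Mthfd2 and Shmt2 did not pass (0.12 and -0.28). Of 20 tRNA synthetases 6 were lower and 0 higher (median -0.19), with Dars at -0.69 (limma adjusted p = 0.00100) and Qars at -0.76 (limma adjusted p = 0.018). Of 7 transporters none passed. Of 15 unfolded protein response genes Xbp1 and Calr (0.25, limma adjusted p = 0.037) were higher and none was lower. Of 7 mitochondrial chaperones and proteases 4 were lower, led by Hspe1 (-0.71). The dissociation list held 7 immediate early genes and 3 heat shock genes. Of the immediate early genes Fos (-1.22), Fosb, Junb, Egr1 and Ier2 were lower and Jund was higher, and no heat shock gene passed. Against other cells with Atoh1 alone, Fosb, Junb, Egr1 and Ier2 had limma adjusted p of 0.056 to 0.23 and differences of -0.48 to -0.34, and Fos kept its call. Several calls were lost with 1 library fewer. Without RL e13 replicate 2 the limma adjusted p of Cebpg was 0.080, of Eif4ebp1 0.093, of Ddit4 0.089, of Psph 0.080, of Qars 0.15 and of Calr 0.25, and their differences were 0.44, -0.92, -0.41, -0.85, -0.71 and 0.24. Iars, Kars, Tars and Vars lost their calls too (limma adjusted p from 0.13 to 0.23), which left Dars of the 6 synthetases. Without RL e14 replicate 2 the limma adjusted p of Ddit4 was 0.24, of Qars 0.060 and of Calr 0.065, with differences of -0.22, -0.58 and 0.24. Iars, Vars and Kars lost their calls there as well (limma adjusted p = 0.20, 0.30 and 0.23). Their differences were smaller, at -0.40, -0.33 and -0.32, against -0.66, -0.59 and -0.41 with all 3 libraries. Eif2ak2 was called only with all 3 libraries (limma adjusted p from 0.057 to 0.17 without 1 of them). Radial glia markers summed to 1260 to 1898 CPM in the RL gates, against 3331 to 4685 CPM in the other cells of the same libraries, and their part in these differences was not tested.

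Between embryonic days the members did not pass either. Over granule progenitor (Atoh1+) and Sox2+ profiles without Eomes and Lmx1a, Asns averaged 39.6 ± 4.25 CPM in RL e14 and 50.1 ± 9.97 CPM in RL e13 (SD, n = 2 each), a log2 difference of -0.35 ± 0.17 (SE, 95% interval -0.77 to 0.08, limma adjusted p = 0.38). Atf5 averaged 29.9 ± 2.89 CPM in RL e14 and 25.5 ± 0.304 CPM in RL e13, a difference of 0.19 ± 0.12 (SE, 95% interval -0.11 to 0.50, limma adjusted p = 0.47). Limma called none of 8422 genes at an adjusted p under 0.05 (0%), and 1314 had an unadjusted p under 0.05. No other tool was run. Without RL e13 replicate 2, the library with the conflicting day, 628 genes were called, but RL e13 then holds 1 library, which is assumed to vary like the RL e14 libraries. Fitted without the filter, the other 4 members had differences between -0.19 and 0.03 with limma adjusted p of 0.62 or more.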

How the data were processed

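Single cells of mouse cerebellum had been profiled with 10x Chromium 3′ chemistry (per the labels' protocols, kits v3 and v3.1), and per the submitters' processing notes Cell Ranger was the tool and mm10 the build. The authors deposited natural log (ln) values, ln(1 + 10000 × UMIs / total UMIs of the cell), for 15971 genes in 6987 cells. UMIs were recovered from them: 100% of values came out whole within 0.01 (largest deviation 0.000894). Depth per library ran from 13607965 to 33502151 UMIs. The deposited file of libraries names 5 batches, and the batch no title matched was taken as the e16 library, the only title left. No cell types were given and no doublet caller was run.

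Levels are means over cells of UMIs per 1000000 (CPM), with 20 or more cells per profile. Tests used limma 3.58.1 (trend; R 4.3.3) on log2(CPM + 5), which understates changes of low genes, for genes averaging at least 10 CPM, Benjamini-Hochberg adjustment over all genes, a two-sided threshold of 0.05 and, within libraries, the library as a block. It was tested on simulated data. Correlations used cells thinned to 5000 UMIs. Python 3 libraries (numpy, scipy, pandas) did the rest. Shares and counts have 95% intervals that cover counting error only. Alternatives were another pseudocount, filter, scaling, gate and depth, and leaving out each library. Separate animals per library are not stated anywhere, and p-values then measure only the spread between libraries, which may be technical. Members and lists were chosen with earlier results of these data known. Genes named from each list were up to 4 called ones of the greatest difference and up to 2 others of the highest level.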

Additional observations from a re-analysis of the deposited data

How the results depend on the processing

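The 6 e16 differences kept their sign under the alternatives run, but 5 of them moved by more than 1 SD of the RL libraries under 2 alternatives each: Chac1 (2.38) to 3.36 with a pseudocount of 1 and 3.04 thinned, Slc7a3 (3.02) to 4.94 and 3.22, Nupr1 (1.45) to 3.07 and 1.67, Atf5 (1.74) to 2.05 with the gate of 2 UMIs and 2.26 thinned, and Slc7a5 (2.07) to 2.57 with a pseudocount of 1 and 2.62 with that gate. For these differences and for the fits between RL gates, thinning also changed the cells, since Eomes and Lmx1a were read again from the thinned UMIs. The e16 gate then held 1187 cells, against 1659. The correlations kept the gate from all UMIs. In the comparison of the e16 library with the RL libraries 937 genes were past the limits, 620 with a gate of 2 UMIs of each gene (2 RL libraries) and 795 to 1217 when 1 RL library was left out. The summed level of the 6 genes in the e16 gate was 443 CPM, 427 from summed UMIs and 463 without cells with Mki67 or Top2a. The median pair correlation of 0.263 was 0.351 without thinning, 0.177 at 3000 UMIs, 0.272 without the 5% of cells with the most UMIs, 0.300 with the gate of 2 UMIs and 0.351 as a partial correlation on log UMIs. Thinning removes UMIs, so sparser values lower it. Between gates of the RL libraries 1954 genes were called, 953 without the library block, 763 thinned (2 libraries left) and 972 to 2242 when 1 library was left out, lowest without RL e13 replicate 2. Neither Asns nor Atf5 was called in any of these fits. Of 35 list genes called, 20 were lost without RL e13 replicate 2 and 24 after thinning, Atf4 among these (adjusted p = 0.11, limma), and none changed sign. Median-of-ratios scaling moved the share of calls that were higher to 54.6%, against 46.9%. Between RL e14 and RL e13, 0 genes were called, 184 when the age tag of RL e13 replicate 2 replaced its title, and 0 to 628 when 1 library was left out. Each of these leaves a group with 1 library, which is assumed to vary like the others, so the counts are not firm. With the replicate number as a block 0 were called. Same-numbered libraries did not deviate together (r = -0.00788), so the numbers were not taken as pairs. Members with fewer than 20 UMIs in the RL gates limit the ratios of Chac1, Slc7a3, Slc7a5 and Nupr1.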
